A study of Mus musculus with 6 samples.

Results

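Il6ra and 9 other genes of interleukin-6 signalling were followed in left ventricular tissue of male C57BL/6 mice. Il6ra was taken up because its difference between ethanol-fed and control mice had rank 8 by p among 15727 tested genes, so its values in that contrast are a description and carry no test here. The other genes, Il6st, Il6, Lif, Lifr, Osmr, Il11ra1, Jak1, Stat3 and Socs3, were added as partners in the pathway, with earlier results of these data known. Each symbol matched 1 row of the 55487 genes in the files, which gives 10 genes, all with a count in at least 1 library. Il6 and Lif had too few counts for the test across all genes, and 8 were tested.

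Mice of the ET group, 8 weeks old when the feeding began, were fed 5% ethanol for 10 days and then received a single ethanol gavage, a chronic-plus-binge scheme known as the NIAAA model. Mice of the CONT group were given an isocaloric diet for 10 days and a maltose-dextrin gavage. All mice were wild type and the tissue was taken 9 h after the gavage. Each group has 3 libraries from polyadenylated RNA, and the replicate numbers used here only follow the order of deposit. No label states whether a library stands for its own mouse. Any p therefore measures the spread among these samples alone, and that spread may be technical.

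Interleukin-6 binds its receptor subunit Il6ra, which has little signalling activity of its own, and the pair recruits Il6st (gp130), the subunit that the whole cytokine family shares. Gp130 activates the kinase Jak1, which phosphorylates the transcription factor Stat3, and Stat3 switches on Socs3, which shuts the receptor down again. In the heart, gp130 signalling is known for supporting cardiomyocyte survival and growth under load, and a shed, soluble form of Il6ra can carry interleukin-6 to cells that lack the membrane form.

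The libraries held 28838386 to 37762233 expected counts. The ventricular marker Myl2 was at 2971 to 8573 CPM (counts relative to the library total after scaling with TMM factors). Myh6, a cardiomyocyte marker that does not tell ventricle from atrium, was at 15392 to 28672 CPM. Both were high in every library and lowest in ET replicate 1. The sum of 12 cardiomyocyte markers was 38558 CPM in ET replicate 1 and 62337 to 73367 in the others. The summed level of 8 atrial markers was 108 to 378 CPM in 4 libraries, 1715 in CONT replicate 3 and 9257 in ET replicate 1, so these 2 libraries stand apart from their label. The effective gene lengths in the files also split the libraries: ET replicate 1 went with the first and second CONT libraries (set 1), and the third CONT library went with the other ET libraries (set 2). In bulk tissue, fewer cells of a type and less RNA per cell cannot be told apart.

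The promoters of Il6ra, Il6 and Socs3 are shown because these genes are the receptor that defines the set, its ligand, and the feedback gene of the pathway. Each run is the 250 bases before the RefSeq start site on GRCm38.p6, read 5′ to 3′ on the strand of the gene. Capitals mark an E-box (CACGTG) in Il6ra, an NF-kB motif (GGG, any 2 bases, TTTCC) in Il6 and a STAT motif (TTCNNNGAA) in Socs3.
Il6ra, chr3:89913197-89913446, minus strand: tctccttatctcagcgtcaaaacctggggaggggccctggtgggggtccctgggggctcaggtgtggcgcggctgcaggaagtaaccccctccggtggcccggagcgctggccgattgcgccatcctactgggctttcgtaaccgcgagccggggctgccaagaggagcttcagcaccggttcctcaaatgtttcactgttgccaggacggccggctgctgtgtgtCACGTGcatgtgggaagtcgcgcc
Il6, chr5:30012864-30013113, plus strand: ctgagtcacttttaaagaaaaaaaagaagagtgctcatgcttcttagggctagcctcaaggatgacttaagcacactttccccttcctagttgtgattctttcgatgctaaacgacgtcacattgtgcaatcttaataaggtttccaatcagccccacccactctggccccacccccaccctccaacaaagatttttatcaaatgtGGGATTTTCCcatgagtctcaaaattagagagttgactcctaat
Socs3, chr11:117969367-117969616, minus strand: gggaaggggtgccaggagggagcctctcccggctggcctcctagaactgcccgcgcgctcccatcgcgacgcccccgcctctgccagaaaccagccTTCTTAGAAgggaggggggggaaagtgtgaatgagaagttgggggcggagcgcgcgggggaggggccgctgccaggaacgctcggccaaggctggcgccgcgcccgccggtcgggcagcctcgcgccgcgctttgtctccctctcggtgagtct

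Promoters of all 10 genes were found in the RefSeq table, and both strands were searched. The STAT motif was found in the Socs3 window alone among the 10 genes, at positions -154 to -146, and in 7.02% of 32851 promoters of the same length. The Il6 window held the NF-kB motif at -44 to -35, which stands in 1.41% of promoters. The E-box of Il6ra, which was picked out after its sequence had been read, lies at -24 to -19 and occurs in 6.02% of promoters. None of the 10 genes had the glucocorticoid response motif ACANNNTGT in this window, against 5.84% of promoters. These matches describe letters in the windows and are not sites shown to be bound. The Il6ra window had 18 CG dinucleotides and 65.2% G and C, against medians of 6 and 52.4% over all promoters. That of Il6 had 3 CG dinucleotides and 42.8% G and C.

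Il6ra (ENSMUSG00000027947) lies on chromosome 3 at 89864059 to 89913196 on the minus strand of GRCm38. It encodes the subunit that binds interleukin-6. The expected counts were 109, 106 and 148 in the CONT libraries and 353, 322 and 249 in the ET libraries, in the order of their replicate numbers. After scaling these were 2.98, 3.97 and 4.38 CPM in CONT and 9.41, 9.47 and 8.10 CPM in ET. Every ET library was above every CONT library. The group means were 3.78 ± 0.718 and 8.99 ± 0.771 CPM (SD, n = 3 per group), a 2.38-fold ratio, with a log2 fold change of 1.25 ± 0.19 (SE).

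The difference in Il6ra had the same direction in both library sets. That was given in advance, because every ET library lay above every CONT library, and nothing is read from it. Its log2 ratio, ET over CONT, came to 1.44 in set 1 and 1.004 in set 2, each resting on 1 library of one of the groups. It was 1.37 when ET replicate 1 and CONT replicate 3 were both omitted. Summed macrophage markers (11 genes) were at 627 CPM in ET replicate 1 and 285 in ET replicate 2, where Il6ra was at 9.41 and 9.47 CPM. Over the groups the macrophage sum was 282 to 293 CPM in CONT and 272 to 627 in ET. The part of macrophages in the Il6ra level was not tested.

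Hepatocytes and leukocytes are well known sources of Il6ra, and their markers were read beside it. The sum of 12 neutrophil markers was 1.75 to 7.96 CPM in CONT and 3.53 to 48.4 in ET, with ET replicate 3 the highest, and the defining gene Ly6g was at 0 to 0.163 CPM. The sum of 11 hepatocyte markers was 27.0 to 44.2 CPM in CONT and 23.4 to 229 in ET, with Alb at 46.8 CPM in ET replicate 3 and at most 2.16 in the others. The 8 T cell markers summed to 2.04 to 2.08 CPM in CONT and 0.781 to 3.33 in ET, and Cd3e was at 0 to 0.293 CPM. No list had a marker at 0 in every library. The part of these cells in the Il6ra level was not tested.

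**Figure D1:**
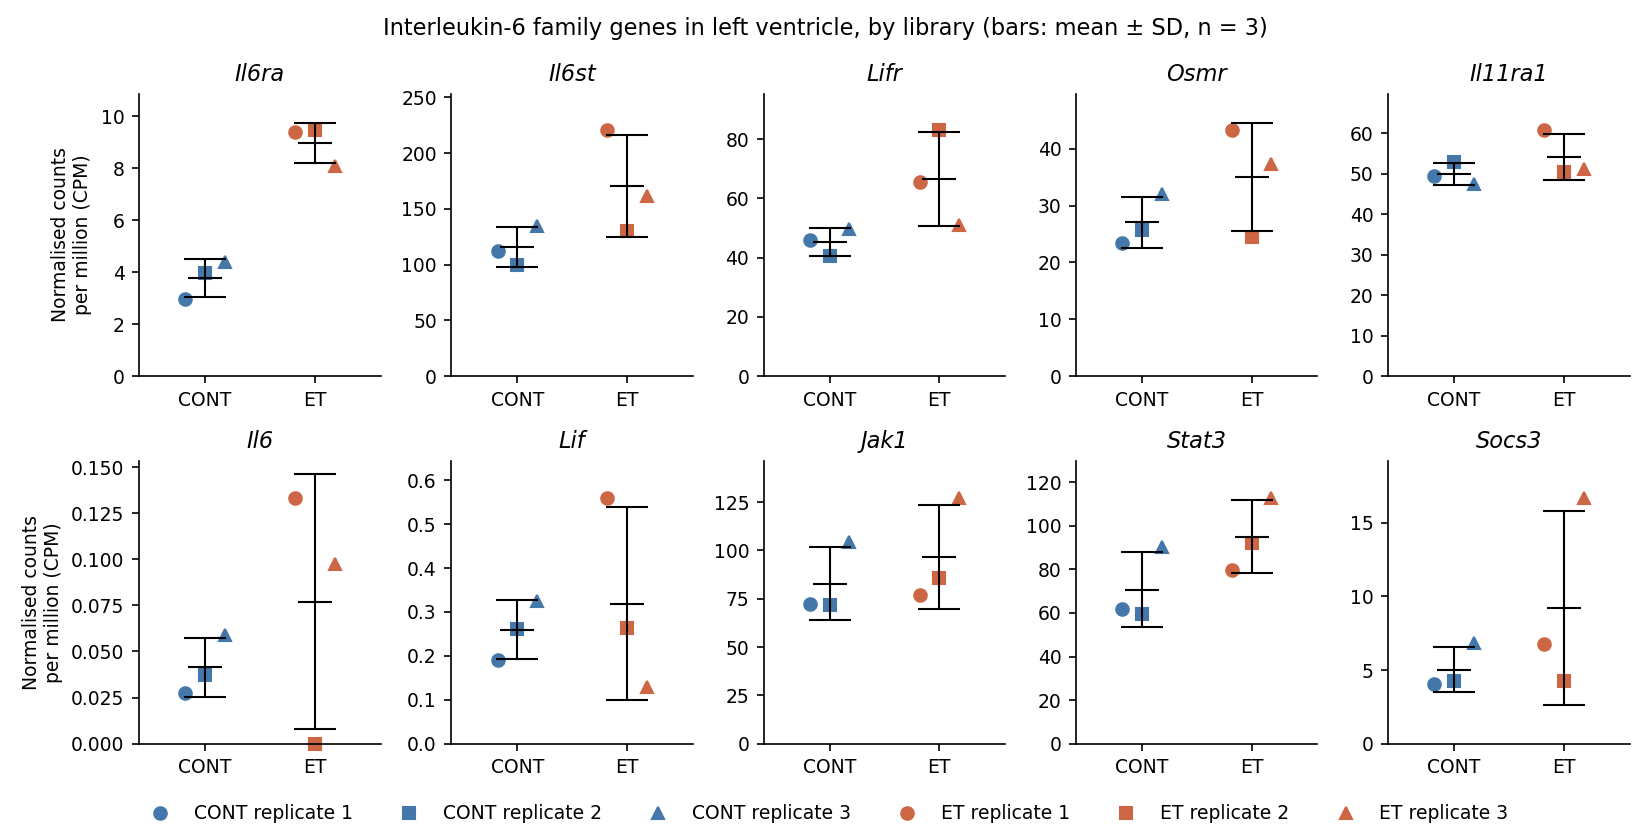
CPM (linear axes from 0) of the 10 genes in each library, CONT in blue and ET in orange, with one symbol per replicate and bars for the mean ± SD of 3 libraries. Il6ra shows 3 ET points between 8.10 and 9.47 CPM above 3 CONT points between 2.98 and 4.38, whereas the points of Il6st, Osmr, Jak1, Stat3 and Socs3 overlap between the groups.

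Il6st, the gp130 subunit that all members of the receptor family signal through (chromosome 13 at 112464070 to 112510086, plus strand), was far more abundant than Il6ra. Its levels were 113, 99.5 and 135 CPM in CONT and 221, 130 and 162 CPM in ET. The groups overlapped, because ET replicate 2 was below CONT replicate 3, and ET replicate 1 was the highest. The log2 fold change was 0.56 ± 0.24 (SE), with 1.06 in set 1, which holds ET replicate 1, and 0.12 in set 2. Without ET replicate 1 it was 0.35.

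Lifr, the receptor of leukaemia inhibitory factor and a partner of gp130 (chromosome 15 at 7090614 to 7197489, plus strand), was the other gene whose groups did not overlap. Its levels were 45.8, 40.5 and 49.7 CPM in CONT and 65.5, 83.0 and 51.1 CPM in ET. ET replicate 3 lay just above the highest CONT library, and ET replicate 2 was the highest. The log2 fold change was 0.55 ± 0.20 (SE), with 0.60 and 0.43 in sets 1 and 2, and 0.36 without ET replicate 2. The 2 genes without overlap, both higher in ET, stand beside a background of 6.89% of all tested genes with ET above CONT in this way. Nothing is read from that count, because Il6ra was chosen on this contrast.

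Osmr, the oncostatin M receptor (chromosome 15 at 6813577 to 6874969, minus strand), had overlapping groups. It was at 23.4, 25.8 and 32.0 CPM in CONT and 43.2, 24.5 and 37.3 CPM in ET, with ET replicate 2 among the CONT values. Its log2 fold change of 0.37 ± 0.23 (SE) was 0.81 in set 1 and -0.05 in set 2, and 0.21 without ET replicate 1 against 0.57 without ET replicate 2. Osmr and Il6st thus shared the highest value in ET replicate 1 and the low ET value in replicate 2. ET replicate 1 also had the highest fibroblast marker sum, 4602 CPM against 1740 to 2096 in the other 5 libraries. Its atrial, macrophage, mural, mesothelial, Schwann and T cell marker sums were the highest too, and its cardiomyocyte sum was the lowest. The part of these cells in both genes was not tested.

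Il11ra1, the receptor of interleukin-11 (chromosome 4 at 41699989 to 41769474, plus strand), was the steadiest of the 10 genes. It was at 49.4, 53.0 and 47.5 CPM in CONT and 60.7, 50.5 and 51.1 CPM in ET, and the groups overlapped. The log2 fold change was 0.11 ± 0.14 (SE), and 0.04 without ET replicate 1. A near-identical copy, Il11ra2, shares reads with it, so the division between them is uncertain. Il11ra2 had 14.4, 7.76 and 15.0 expected counts in CONT and 112, 7.99 and 68.4 in ET, many fewer than the 1416 to 2278 of Il11ra1.

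The ligands were close to the limit of detection. Il6, the cytokine itself (chromosome 5 at 30013114 to 30019981, plus strand), had 1, 1 and 2 counts in CONT and 5, 0 and 3 in ET. The floor set for a count of 0 was 3 counts, which in ET replicate 2 is 0.0881 CPM, and no fold is given. Lif, leukaemia inhibitory factor (chromosome 11 at 4257557 to 4272514, plus strand), had 7, 7 and 11 counts in CONT and 21, 9 and 4 in ET. The highest and the lowest Lif value were both ET libraries, at 0.560 and 0.130 CPM, so the groups overlapped on both sides. A difference in Il6 or Lif was not detectable at this depth.

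Jak1, the kinase bound to gp130 (chromosome 4 at 101152367 to 101265282, minus strand), was at 72.0, 72.0 and 104 CPM in CONT and 77.1, 85.7 and 127 CPM in ET. CONT replicate 3 lay above 2 of the ET libraries, and the log2 fold change was 0.22 ± 0.25 (SE). With single libraries left out it ranged from -0.03, without ET replicate 3, to 0.44, without CONT replicate 3. It was 0.59 without CONT replicate 3 and ET replicate 1. In set 1 the log2 ratio was 0.10 and in set 2 0.03, so that both are smaller than the pooled value.

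Stat3, the transcription factor of the pathway (chromosome 11 at 100885098 to 100939540, minus strand), was at 62.0, 59.5 and 90.4 CPM in CONT and 79.7, 92.2 and 113 CPM in ET. Only CONT replicate 3 reached into the ET range. The log2 fold change was 0.43 ± 0.22 (SE), with 0.39 in set 1 and 0.18 in set 2, and 0.78 without CONT replicate 3 and ET replicate 1. It was 0.66 without CONT replicate 3 alone and 0.28 without ET replicate 3 alone. On the TPM scale, which uses effective lengths and no TMM factors, the Stat3 groups did not overlap (13.5 to 23.7 against 24.5 to 29.2). This was so in 12.3% of all tested genes with ET higher. CONT replicate 3 and ET replicate 1, which overlap in CPM, had Stat3 effective lengths of 3966 and 3947 bases. Their TMM factors were 1.004 and 1.19. In CPM, Stat3 and Jak1 shared their highest library in each group, CONT replicate 3 and ET replicate 3.

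Socs3, the feedback inhibitor that Stat3 induces (chromosome 11 at 117966079 to 117970047, minus strand), had the largest error among the 8 tested genes of the set. It was at 4.05, 4.23 and 6.80 CPM in CONT and 6.77, 4.23 and 16.7 CPM in ET. Leaving ET replicate 3 aside, the ET libraries lay within the CONT range. The log2 fold change of 0.87 ± 0.50 (SE) was 0.13 without that library. ET replicate 3 also had the highest neutrophil sum and the highest Alb, and the part of these cells in the Socs3 value was not tested.

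After Benjamini-Hochberg adjustment of edgeR's quasi-likelihood p-values, none was under 0.05, neither among the 8 tested genes of the set nor among all 15727 (0%). Of all tested genes 8.65% had an unadjusted p under 0.05, and of the 8 these were Il6ra, Il6st and Lifr. DESeq2 called 185 genes (1.2%), with Il6ra as the only one of the set. Without CONT replicate 3 and ET replicate 1, edgeR called 828 genes (5.27%), among them Il6ra and Stat3, but the remaining CONT libraries were then all of set 1 and the ET libraries all of set 2, so that group and set cannot be told apart. All 8 log2 fold changes were above 0, as were 51.9% of those of all tested genes, and Il6ra was the one of the 8 with a size of at least 1, against 5.65%.

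**Figure D2:**
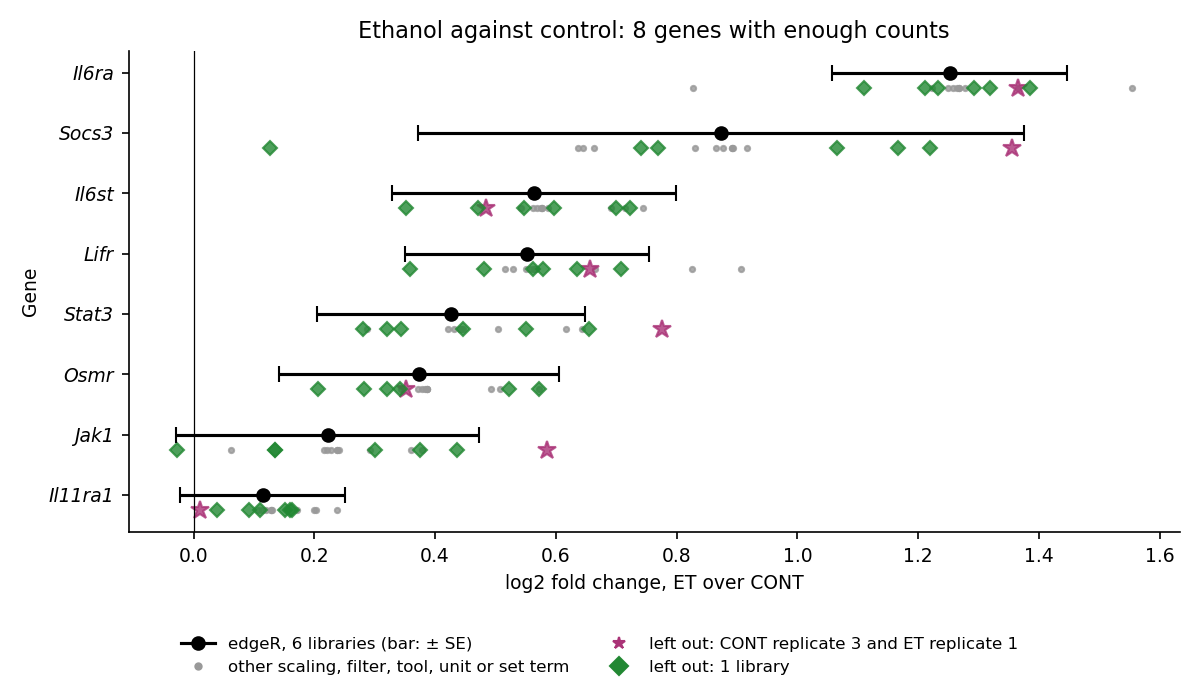
Log2 fold change of ET over CONT (x axis) for the 8 tested genes, as edgeR's value with a bar of ± SE in black and, below it, the values under each alternative. Il6ra stays between 0.83 and 1.55, Socs3 drops to 0.13 when ET replicate 3 is left out, and Jak1 reaches -0.03.

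Levels can be compared between genes per transcript length, in TPM. It divides counts by effective length and scales the results to the same sum in every library. By the mean over 6 libraries the order was Il11ra1 (39.8 ± 8.58 TPM, SD), Il6st (23.7 ± 9.67), Stat3 (22.6 ± 6.36), Jak1 (20.0 ± 4.95), Lifr (9.48 ± 3.73), Osmr (7.09 ± 2.57), Socs3 (2.94 ± 1.89), Il6ra (1.11 ± 0.653), Lif (0.112 ± 0.0861) and Il6 (0.0550 ± 0.0517). Il6st, Stat3 and Jak1 did not keep their order: Il6st was above Stat3 in 2 of 6 libraries, and Stat3 above Jak1 in 4 of 6. Lifr was above Osmr in 5 of 6 libraries. Each of the other neighbours in this order was higher than the next gene in 6 of 6 libraries. The ranges of neighbours overlapped except between Il6ra (0.400 to 1.81 TPM) and Lif (0.05 to 0.28 TPM).

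Il6ra was therefore the scarcest of the receptor subunits in the set. Of all tested genes, 24.4% had a lower mean TPM than Il6ra and 85.9% a lower one than Il6st. Per library, the Il6ra level was 2.46%, 3.39% and 3.09% of the Il6st level in CONT and 4.11%, 8.00% and 6.13% in ET. The 3 ET shares lay above the 3 CONT shares, but nothing is read from this, because Il6ra was chosen on this contrast. The shares also depend on the effective length assigned to Il6ra, which was shortest in ET replicates 2 and 3. Over the 6 libraries gp130 transcripts outnumbered those of Il6ra by 12.5 to 40.7 times.

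**Figure D3:**
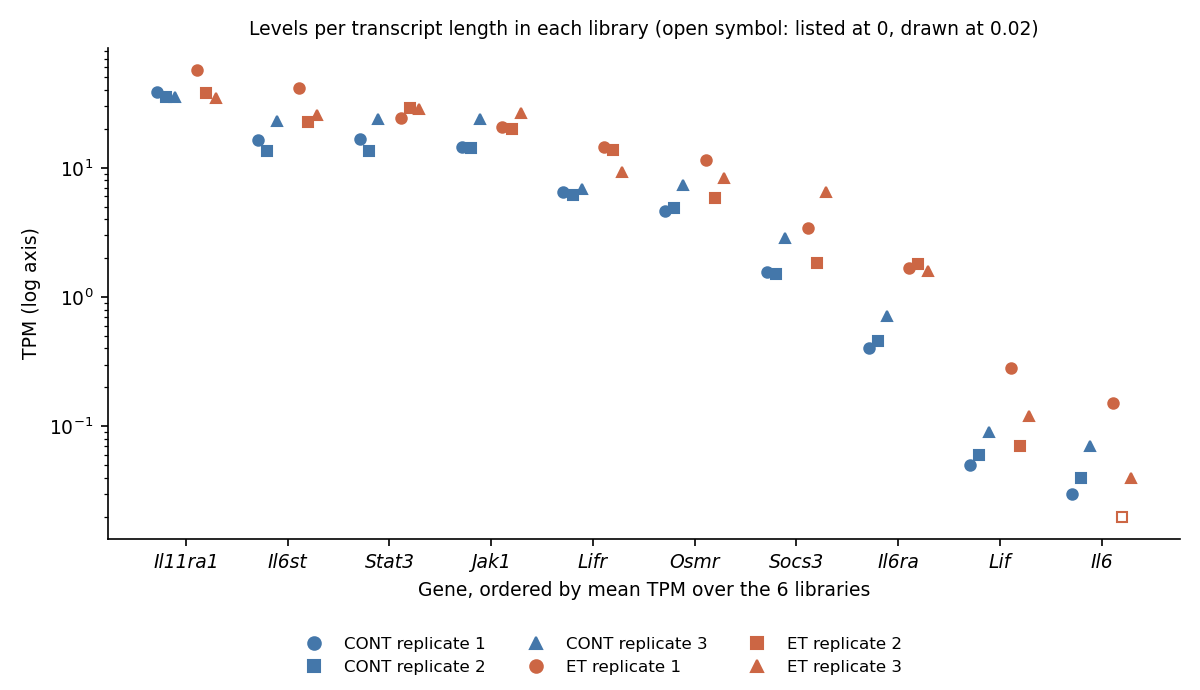
TPM of each gene in each library on a log axis, with genes ordered by their mean over 6 libraries, CONT in blue and ET in orange. Il11ra1 leads at 39.8 TPM on average, Il6ra is the lowest receptor subunit at 1.11 TPM, and Lif and Il6 lie under 0.3 TPM in every library, with Il6 listed at 0 in ET replicate 2.

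The files also hold an average transcript length of Il6ra for each library. The annotation gives it 2 coding transcripts of 10 exons each, Il6ra-201 of 3343 bases and Il6ra-202 of 8639 bases, whose 3′ end lies further downstream. The effective length that the authors' quantification assigned to the gene, an average over its transcripts weighted by their estimated levels, was 6713, 7501 and 6459 bases in CONT replicates 1 to 3. In ET replicates 1 to 3 it was 6739, 5604 and 4933 bases. ET replicates 2 and 3 were thus shorter than every other library, while ET replicate 1 lay within the CONT range. CONT replicate 3 was the next shortest, so the lengths split by library set, with set 2 below set 1. The lengths of 25.3% of 7677 well-covered genes did not overlap between the sets, and those of 12.6% did not overlap between ET and CONT. The sets were defined as the split with the most such genes, so the first share is the highest by construction. No difference between the groups is read from the Il6ra lengths. Rounding of the deposited values moves these lengths by at most 1.16%, and the error that comes from the low counts of Il6ra was not measured.

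Over 7677 well-covered genes the ratio of the highest to the lowest effective length had a median of 1.09, and 2.20% of them reached the ratio of 1.52 seen in Il6ra. These genes had at least 200 counts in every library, whereas Il6ra had 106 to 148 in CONT. The 2.20% therefore does not compare like with like. The TPM of Il6ra was 0.400, 0.460 and 0.710 in CONT and 1.69, 1.81 and 1.58 in ET, without overlap, as in CPM. Among the tested genes of the set, Lifr (ratio 1.44) was the only other one with a ratio above 1.25, and Jak1, Socs3, Il6st and Osmr stayed between 1.05 and 1.09. Which transcript was present was not measured apart from this average. Of the exon bases of Il6ra, 2.80% overlap a gene on the opposite strand, and strand use in the counting is not given in the sources used here.

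**Figure D4:**
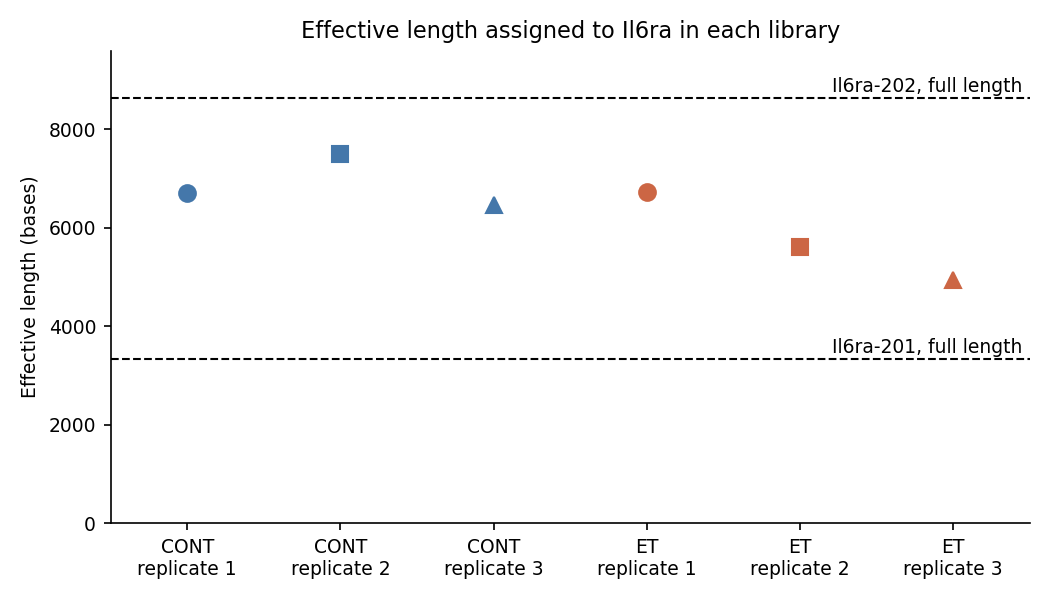
Effective length of Il6ra in bases (linear axis from 0) in each of the 6 libraries, with dashed lines at the full lengths of its 2 annotated transcripts, 3343 and 8639 bases. ET replicates 2 and 3, at 5604 and 4933 bases, lie below the other 4 libraries, which range from 6459 to 7501. The lowest of these 4 is CONT replicate 3, so that library set 2 lies below set 1.

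Outside the set, 112 other genes were read from 8 lists. These were ligands, receptors, sheddases, transducers, inhibitors, target genes and acute-phase genes of the pathway and, for comparison, 32 receptors of other cytokines. Of the 112, 89 were tested, 29 of them in the list of receptors of other cytokines. In edgeR 0 passed the adjusted p of 0.05, and 13 had an unadjusted p under 0.05. Of these, 10 had higher values in ET, beside 4.19% of all tested genes, and 3 had lower values, beside 4.46%. Of the 3 lower genes, 2 were receptors of other cytokines. DESeq2 called 2 of the 89, Cp and Myc. In 9 of the 89 every ET library lay above every CONT library, and in 4 below, which happened in 6.89% and 8.36% of all tested genes. Their median log2 fold change was 0.17, against 0.01 over all tested genes, and it was 0.06 without ET replicate 1. The values below describe genes that did not pass.

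Of 10 other ligands and ligand partners, 5 were tested, with 3 higher and 2 lower in ET and a median of 0.04 (-0.30 without ET replicate 1 and 0.45 without ET replicate 3). Ctf1, cardiotrophin-1, a gp130 ligand of heart muscle, was at 3.34 CPM on average in CONT and 2.54 in ET (-0.40 ± 0.30), with overlap. Cntf, ciliary neurotrophic factor, had 0.67 ± 0.97 and overlapping groups. Of the 3 other receptors of the family 2 were tested, namely Cntfr, the receptor of Cntf (0.80 ± 0.63), and Il27ra, a receptor of interleukin-27 (-0.15 ± 0.46). Neither separated the groups.

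Of the 5 genes that act on receptor shedding, 2 were higher and 3 lower in ET, with a median of -0.06. Adam17, the protease that sheds Il6ra, was at 24.3, 24.2 and 19.4 CPM in CONT and 18.9, 23.6 and 15.4 CPM in ET, with overlap (-0.23 ± 0.19). Rhbdf1, which escorts that protease to the cell surface, had -0.17 ± 0.18. Timp3, its tissue inhibitor, was at 325, 275 and 324 CPM in CONT and 628, 446 and 403 CPM in ET, without overlap (0.68 ± 0.22). Of the exon bases of Timp3, 21.3% are shared with Syn3 on the opposite strand, so its value is uncertain.

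Of the 9 other kinases and transducers, 5 were higher and 4 lower, with a median of 0.25 that was 0.07 with a term for the library set, 0.01 without ET replicate 1 and 0.14 without ET replicate 3. Jak2, a kinase that also binds gp130, was at 19.6 ± 2.67 CPM in CONT and 24.1 ± 1.55 in ET (SD, n = 3), without overlap (0.30 ± 0.14). Stat5b had 0.37 ± 0.17 and overlapping groups. The most abundant were Ptpn11, a phosphatase and adaptor at gp130 (0.57 ± 0.30), and the adaptor Grb2 (-0.07 ± 0.15), both with overlap.

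Of the 11 other inhibitors, 6 were higher and 5 lower, with a median of 0.18, which was 0.04 with the set term and 0.08 without ET replicate 3. The phosphatase Ptpn1 was at 17.5 ± 0.856 CPM in CONT and 20.1 ± 0.700 in ET, without overlap (0.20 ± 0.11). Ptpn2, another phosphatase of the pathway (0.32 ± 0.19), and Pias1, an inhibitor of activated STAT proteins (0.25 ± 0.14), overlapped. The most abundant inhibitors, Cish (0.18 ± 0.51) and Socs2 (0.44 ± 0.27), both also induced by STAT5, overlapped as well.

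Of 26 other STAT3 target genes 24 were tested, 18 higher and 6 lower in ET, with a median of 0.35. An unadjusted p under 0.05 was found in 5 of the higher ones and 1 of the lower, where 4.19% and 4.46% of all tested genes had one. Myc, a growth-promoting transcription factor, was at 2.93, 2.13 and 3.61 CPM in CONT and 6.51, 5.76 and 18.5 CPM in ET, without overlap (1.82 ± 0.48), and ET replicate 3 was the highest, as for Socs3. Cebpd, an acute-phase transcription factor, overlapped (0.97 ± 0.34). Vegfa, the endothelial growth factor and the most abundant gene of this list, went the other way without overlap, at 218, 270 and 196 CPM in CONT and 120, 164 and 154 in ET (-0.64 ± 0.20). Pim3, a kinase, had 0.32 ± 0.32. The median of the list was 0.17 without ET replicate 3 and 0.60 without CONT replicate 3 and ET replicate 1.

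Of 20 acute-phase genes, a class of secreted proteins that interleukin-6 induces in the liver, 8 had enough counts, 7 higher and 1 lower in ET, with a median of 1.30, which was 0.63 without ET replicate 1. An unadjusted p under 0.05 was found in 5 of the 7, beside 4.19% of all tested genes. The list shares Lcn2, Lrg1 and Serpina3n with the STAT3 targets, and Lcn2 and Lrg1 are counted among the 5 in both. Cp, ceruloplasmin, a copper-carrying ferroxidase, was at 40.0, 50.2 and 66.9 CPM in CONT and 137, 128 and 103 CPM in ET, without overlap (1.23 ± 0.23). Lrg1, a secreted leucine-rich glycoprotein, was at 30.0, 55.5 and 38.4 CPM in CONT and 62.6, 64.8 and 65.2 CPM in ET, also without overlap (0.64 ± 0.23). Itih4, a plasma protein of the inter-alpha-trypsin inhibitor family, was highest in ET replicate 1 (22.5 CPM against 2.30 to 5.79 in the others), and its groups did not overlap either. The hepatocyte sum was also higher in ET replicates 1 and 3 (173 and 229 CPM, against 23.4 to 44.2 in the other 4). The 2 sums differed in their make-up. In ET replicate 1 most of the sum came from the markers Trf and Ahsg (86.5 and 79.7 CPM), with Alb at 2.16 and Fgb at 0.293 CPM. In ET replicate 3 Trf was at 94.6 and Ahsg at 17.8 CPM, with Alb at 46.8 and Fgb at 10.4 CPM. The part of hepatocyte RNA in the acute-phase values was not tested.

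Among 32 receptors of other cytokines, which were set beside Il6ra, 29 were tested, with 16 higher and 13 lower and a median of 0.05. None of the higher ones had an unadjusted p under 0.05, and 2 of the lower ones did. These were Il2rg, the common gamma chain (11.9, 10.2 and 5.18 CPM in CONT against 5.52, 4.88 and 3.74 in ET, with overlap), and Il3ra (3.93 ± 1.21 against 2.14 ± 0.492, without overlap). Il18r1 had the highest log2 fold change (3.85 ± 1.64), from ET replicate 1 at 8.75 CPM against 0.0374 to 0.533 in the others. The most abundant receptors, Il10rb (-0.18 ± 0.25) and Ifngr2 (-0.25 ± 0.24), overlapped. Receptors of other cytokines thus had a median near that of all genes.

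**Figure D5:**
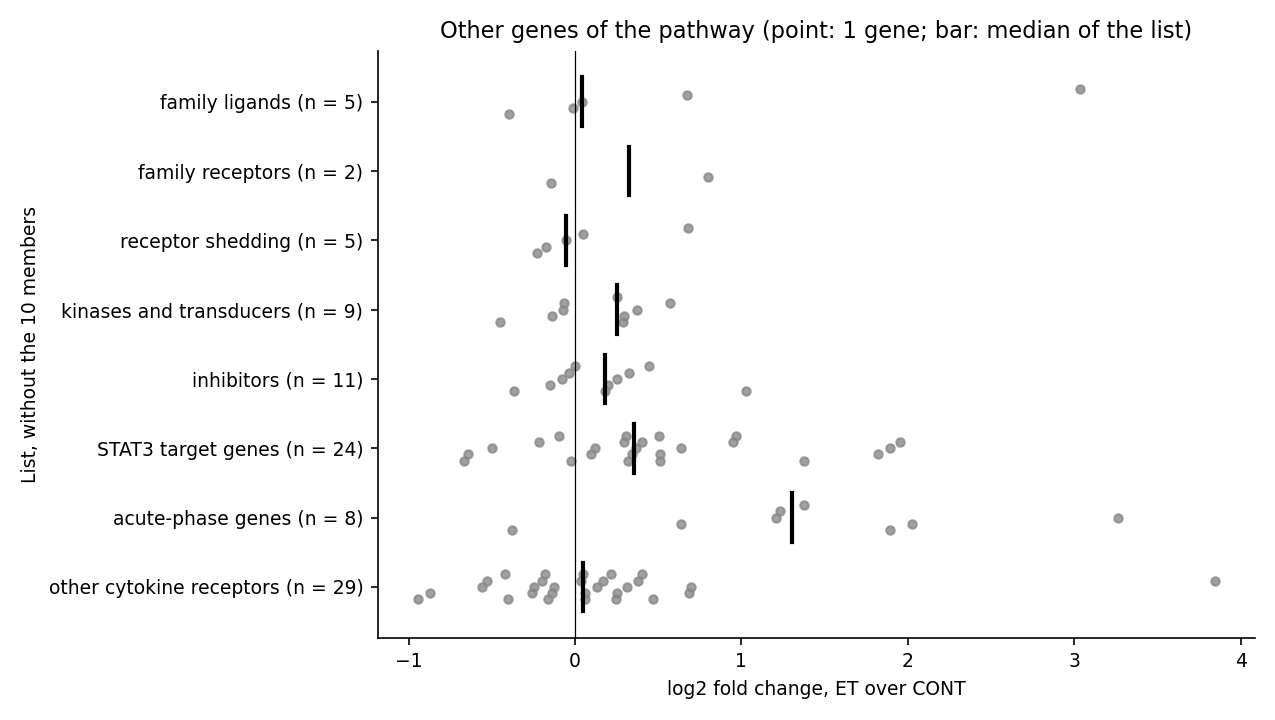
Log2 fold change of ET over CONT (x axis) of each tested gene in the 8 lists, with the 10 genes of the set left out, and a bar at the median of each list. The acute-phase list has the highest median, 1.30 over 8 genes, and receptors of other cytokines lie around 0.05 over 29 genes.

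The genes whose profile over the 6 libraries was most like that of Il6ra were named by Pearson's r of log2 CPM among 12025 genes with a mean of at least 1 CPM. They were Thsd7a (r = 0.997), Ccdc6 (0.995), Serinc3 (0.994), Spire1 (0.993) and Pitpna (0.992). The most opposite were Srek1ip1 (-0.998), Coro6 (-0.995) and Tmem80 (-0.989). The correlations share the 6 libraries and the group difference, and 215 genes had r over 0.9, so they are a description only. With the group means removed, r was 0.924 to 0.984 for the 5 most alike and -0.989 to -0.840 for the 3 most opposite. These genes were picked for their r over the same libraries, so nothing is read from those values. Within the set, r with Il6ra was 0.81 for Lifr, 0.74 for Il6st and 0.70 for Stat3, and with the group means removed it was 0.38, 0.18 and 0.24. With 3 libraries per group, these values cannot show how closely Lifr, Il6st and Stat3 followed Il6ra within a group.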

How the data were processed

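Polyadenylated RNA of left ventricles was sequenced as paired reads of 75 bp, per the labels' protocols. The submitters' processing notes name STAR 2.7.0f, RSEM 1.2.31 and mm10. Strand use and annotation release: not given in the sources used here. The authors deposited expected counts per gene, not normalized, and TPM and FPKM values per library, per the file headers. After rounding of the expected counts, genes were kept by filterByExpr (minimum count 10, minimum total 15), and the 2 groups were tested over all 15727 genes with the robust quasi-likelihood fit of edgeR (two-sided) and Benjamini-Hochberg adjustment (threshold 0.05). Software was Python 3.11.15 (pandas 2.3.3, matplotlib 3.10.9) and R 4.3.3 (DESeq2 1.42.0, limma 3.58.1, edgeR 4.0.16). CPM were scaled with TMM factors (0.920 to 1.19), and log2 CPM used a prior count of 2. The SE is the log2 fold change divided by the square root of F. Effective length is the expected count relative to the library total divided by FPKM. The library sets are the split into 3 and 3 with the most genes (25.3% of 7677 with at least 200 counts and FPKM of at least 2) whose effective lengths do not overlap. Positions are from GENCODE vM21 and promoters from RefSeq (GRCm38.p6). The tests were tried on simulated counts.

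The genes and lists were chosen with earlier results of these data known. Named outside the set are, per list, the 3 genes of lowest p and the 2 of highest TPM, and the 5 most and 3 least correlated with Il6ra (no predicted loci or pseudogenes). Some genes under this rule are not reported here. Alternatives were RLE factors, library totals, removal of mitochondrially encoded genes, no filter, a minimum of 1 CPM in 3 libraries, limma-voom, DESeq2, log2(TPM + 1) or log2(TPM + 0.1) in limma-trend for mean TPM of at least 0.5, a threshold of 0.10, a set term, and leaving out libraries. The floor of 3 counts covers counting error only.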

Additional observations from a re-analysis of the deposited data

How the results depend on the processing

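The log2 fold change of Il6ra stayed above 0 under all 17 alternatives that gave a value. It was 0.83 with limma-trend on log2(TPM + 1), where the pseudocount is of the size of the level itself, and 1.55 on log2(TPM + 0.1). Leaving out single libraries gave 1.11 to 1.39, and the set term gave 1.22. With every ET library above every CONT library, leaving out libraries could not be expected to turn the sign. Its adjusted p ranged from 5.63e-05 (DESeq2) to 0.999 (edgeR without CONT replicate 2).

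The number of genes called was 0 in edgeR, 185 in DESeq2, 2 with limma-trend on log2(TPM + 0.1) and 828 without CONT replicate 3 and ET replicate 1 together, and 0 under the other alternatives. Genes of the set called were 0, 1 (DESeq2) and 2 (without both libraries). Genes called in the lists outside the set, receptors of other cytokines included, were 0, 2 and 8 under the same settings. The cause was not tested. Leaving out single libraries gave 0 to 0 calls for all 3 counts. Of 119 values of the other 7 tested genes under an alternative, 114 lay within 1 SD of the reported value, 5 moved by more, and 1 was below 0 (Jak1 without ET replicate 3). The order of levels was the same in FPKM for 10 of 10 genes. No paired analysis was possible because the labels carry no replicate numbers, and those used here name the libraries in order of deposit and pair nothing. With 0 to 21 counts per library, the depth does not allow a comparison of Il6 or Lif.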
